A study of Homo sapiens with 9 samples.

Results

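The genes of the proteasome, the protease complex that degrades ubiquitin-tagged proteins, were followed across a MYCN and a HAND2 knockdown in the human neuroblastoma cell line LAN5. Members were chosen by name alone, as every gene symbol made of PSMA, PSMB, PSMC, PSMD, PSME, PSMF or PSMG followed by a number. The rule found 45 of the 25084 genes in the table, and 44 of them were among the 14495 genes that were tested. PSMB8 was below the filter, which asked for at least 1 CPM (reads scaled to a common total per library) in at least 3 libraries. All 9 libraries came from LAN5 cells electroporated with siRNA and collected 72 h later, with 3 libraries for a control siRNA (siCTR), 3 for an siRNA against MYCN (siMYCN) and 3 for an siRNA against HAND2 (siHAND2). MYCN is a MYC-family transcription factor and oncogene of neuroblastoma, and HAND2 is a basic helix-loop-helix factor of sympathetic neuron development. The labels name 1 siRNA for each target and do not say that the 3 libraries of a group came from separate cultures, so p-values measure only the spread between these libraries, which may be technical. Both knockdowns were compared with the same siCTR libraries.

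The proteasome is built around a barrel called the 20S core, whose outer alpha rings form a gate and whose inner beta rings hold the proteolytic sites. A cap called the 19S particle sits on the barrel: its base unfolds substrates with a ring of ATPases, and its lid removes ubiquitin. Separate chaperone proteins help to assemble the core and the base and are not part of the finished complex. In many cells the transcription factor NRF1, encoded by NFE2L1, raises transcription of most subunit genes together when proteasome activity falls short.

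The libraries held 21.1 to 32.7 M assigned reads, estimated from the smallest step of their CPM values. MYCN itself averaged 1842 ± 54.2 CPM (SD, n = 3) in siCTR, 1289 ± 47.0 in siMYCN and 914 ± 48.4 in siHAND2, so it was lower in both knockdowns and the siMYCN cells kept most of its transcript. HAND2 averaged 501 ± 13.7, 571 ± 15.9 and 272 ± 7.65 CPM in the same order, lower in siHAND2 (log2 change -0.88, limma adjusted p = 1.25e-10) and higher in siMYCN (0.19, adjusted p = 0.00183). All 8 noradrenergic neuroblastoma markers that were listed were detected. Leukocyte, Schwann cell and endothelial marker lists had 0 genes above the filter, with summed levels of 0.325 to 2.68 CPM. The 7 stromal markers in the table summed to 222 to 238 CPM in siCTR, 268 to 277 in siMYCN and 555 to 634 in siHAND2, and their part in the proteasome results was not tested. In such bulk samples, fewer cells of a type and less RNA per cell cannot be told apart.

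On the deposited CPM, the summed level of the 45 proteasome genes was nearly the same in every library. It was 3719, 3760.1 and 3799 CPM under siCTR, 3766, 3771 and 3769 under siMYCN, and 3860.2, 3750.3 and 3788 under siHAND2. The groups overlapped, and the siMYCN and siHAND2 means were 100.2% and 101% of the siCTR mean. Median-ratio rescaling divided the libraries by factors of 0.9729 to 0.9827 in siCTR, 1.011 to 1.029 in siMYCN and 1.002 to 1.019 in siHAND2. It would lower the knockdown sums against siCTR, and the sums were not recomputed. The median log2 change of the members in siMYCN was then -0.076, against -0.017 on the deposited CPM. Within the summed level, the classes of subunits moved by different amounts. In siMYCN the genes of the 20S assembly chaperones together stood at 87.7% of siCTR and the alpha ring at 95.4%, whereas the base ATPases stood at 104% and the non-ATPase base subunits at 107%. In siHAND2 the same classes stood at 94.2%, 102%, 102% and 104%. These percentages also come from the deposited CPM, and the rescaling would lower every siMYCN class against siCTR by about the same proportion. Of the ATPases, PSMC3 went from a mean of 168 CPM in siCTR to 189 in siMYCN, while the class went from 644 to 669. Of the assembly chaperones, PSMG1 went from 39.4 CPM in siCTR to 32.2 in siHAND2, while the class went from 114 to 107.

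**Figure D1:**
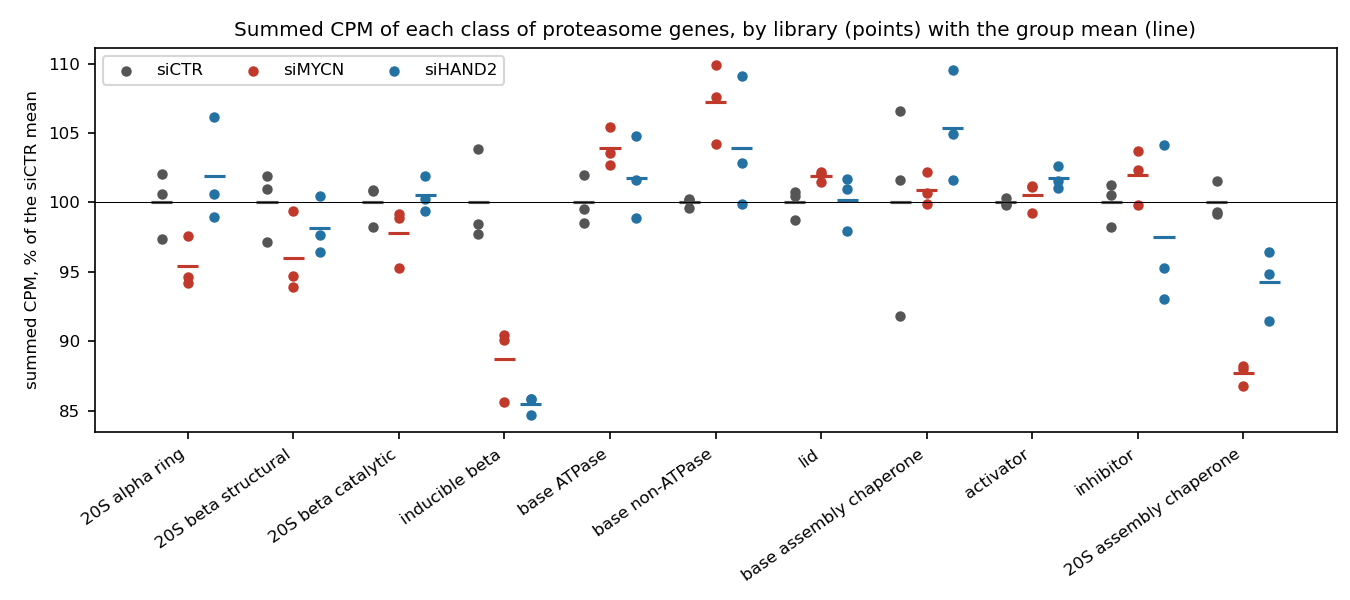
Summed CPM of each class of proteasome genes as a percentage of the siCTR mean (vertical axis, which does not start at 0), with 1 point per library and a line at each group mean. The sums are of deposited CPM. The 20S assembly chaperones lie below 100% in all libraries of both knockdowns. In siHAND2 this rests mostly on PSMG1, at a mean of 32.2 CPM against 39.4 in siCTR. The siHAND2 mean of PSMG4 was 17.4 CPM against 18.5, and those of PSMG2 and PSMG3 were above siCTR. The inducible beta class also lies below 100% in all knockdown libraries but rests almost wholly on PSMB10.

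Levels of different genes were compared per length, as CPM per kb of the canonical transcript in siCTR, which depends on the transcript chosen. The catalytic subunits PSMB5, PSMB6 and PSMB7, which carry the chymotrypsin-like, caspase-like and trypsin-like sites, lay close together at 111 to 127 CPM per kb. The alpha ring was more spread, from 15.8 for PSMA5 to 152 for PSMA7, with a long transcript of 3815 bases for PSMA5 against 962 for PSMA7. Base ATPases ran from 26.3 (PSMC2) to 109 (PSMC3), and lid subunits from 17.7 (PSMD11) to 74.8 (PSMD8). By class median the assembly factors were lower, at 8.54 CPM per kb for the base chaperones and 23.1 for the 20S chaperones. The medians of the alpha, constitutive beta, base and lid classes ran from 45.4 to 116. Single genes overlapped, with the structural beta subunit PSMB2 at 10.4. The base chaperones PSMD5, PSMD9 and PSMD10 had 5.03 to 17.9 CPM per kb and the 20S chaperones 14.1 (PSMG3) to 33.2 (PSMG2). Of the subunits that replace the catalytic ones in the interferon-induced immunoproteasome, PSMB8 and PSMB10 were also low. PSMB8 was the lowest member at 0.285 CPM per kb, and PSMB10 lay at 6.08. PSMB9, of the same class, was not found by its symbol among the genes deposited.

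After the MYCN knockdown, 4 proteasome genes rose and 4 fell. The 4 that rose encode the ATPase PSMC3, the base scaffold PSMD1, the lid subunit PSMD12 and the PA28 activator subunit PSME2. The 4 that fell encode the assembly chaperones PSMG1 and PSMG4 and the alpha ring subunits PSMA5 and PSMA2. The other 36 did not pass the threshold (adjusted p of 0.05, limma with Benjamini-Hochberg adjustment over all genes tested). The 8 calls are 18.2% of the 44 tested members, against a background of 35.9% of all genes tested, 24.5% higher and 11.4% lower. Most members have middling to high levels, where calls are more frequent: among all genes with a mean of 30 to 300 CPM, 44.7% passed, and of the 38 members in that range, 7 passed (18.4%).

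Changes of proteasome genes were small. The log2 fold changes (siMYCN against siCTR, on the log2(CPM + 1) scale) ran from -0.42 to 0.17 with a median of -0.017, against a median of 0.06 over all genes tested. No member changed by 2-fold or more. The change was within 0.1 of 0 for 29 members (65.9%), compared with 37.7% of all genes tested. The median residual SD between libraries was 0.0548 for the members and 0.0839 for all genes tested. The 95% intervals of the 36 members without a call lay between -0.36 and 0.29, so a 2-fold change lay outside the interval of each.

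**Figure D2:**
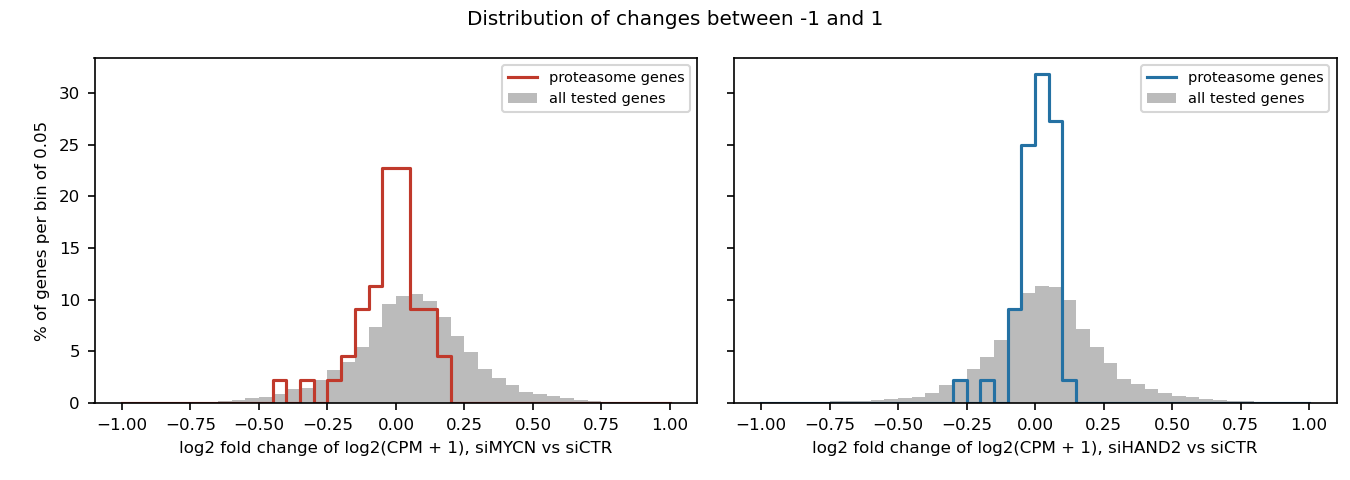
Distribution of log2 fold changes on the log2(CPM + 1) scale in bins of 0.05, as the percentage of the genes that lie between -1 and 1, for siMYCN (left) and siHAND2 (right) against siCTR. The 44 tested proteasome genes (outline) crowd around 0 more than all tested genes (grey), with a few members to the left of -0.2.

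The assembly chaperones of the 20S core held the largest decreases among the members. PSMG1, whose product pairs with that of PSMG2 to help build the alpha ring, is a gene on chromosome 21 (39174769 to 39183488, minus strand, GRCh38). It measured 40.5, 39.6 and 38.2 CPM in the siCTR libraries, 29.3, 27.9 and 30.3 in siMYCN, and 31.6, 30.7 and 34.2 in siHAND2. All 6 knockdown libraries were below all 3 siCTR libraries. PSMG1 fell to 74.0% of siCTR in siMYCN (log2 fold change -0.42, SE 0.056, limma adjusted p = 2.71e-05) and to 81.6% in siHAND2 (-0.29, adjusted p = 0.0011). No other gene of the table overlaps it.

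PSMG4 encodes the partner of PSMG3 in the other chaperone pair and lies on chromosome 6 (3231403 to 3303373). Its level was 17.8, 18.9 and 18.9 CPM under siCTR, 13.7, 16.6 and 13.9 under siMYCN, and 15.4, 19.3 and 17.6 under siHAND2. The siMYCN libraries were all below siCTR, whereas siHAND2 overlapped it. PSMG4 fell to 79.5% of siCTR in siMYCN (-0.32, SE 0.085, limma adjusted p = 0.00821), and its change in siHAND2 did not pass (-0.09, adjusted p = 0.467). The deposited interval of PSMG4 also covers all or some of SLC22A23 and TUBB2B, which lay at 6.01 and 680 CPM, and TUBB2B changed the other way in siMYCN (0.28, limma adjusted p = 0.000593).

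The partner genes did not pass in either knockdown. PSMG2 measured 34.8, 38.3 and 33.6 CPM under siCTR, 34.0, 32.7 and 33.4 under siMYCN, and 35.4, 36.4 and 37.8 under siHAND2. PSMG3 measured 19.7, 18.6 and 22 CPM under siCTR, 23.0, 23.0 and 20.9 under siMYCN, and 21.4, 21.2 and 20 under siHAND2. Both genes overlapped between siCTR and each knockdown, with log2 fold changes in siMYCN of -0.09 (limma adjusted p = 0.253) for PSMG2 and 0.15 (0.111) for PSMG3. Without siCTR replicate 3, PSMG3 passed as higher in siMYCN while PSMG4 passed as lower.

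**Figure D3:**
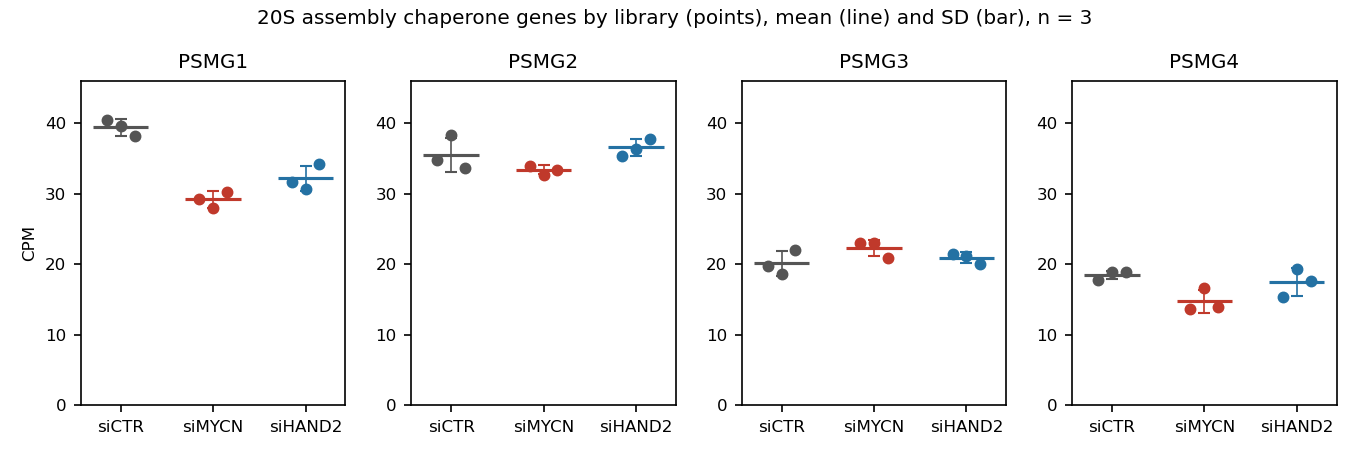
CPM of the 4 genes of the 20S assembly chaperones in each library (points), with the group mean (line) and SD (bar, n = 3). PSMG1 is separated from siCTR in both knockdowns and PSMG4 in siMYCN, while PSMG2 and PSMG3 overlap.

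In the alpha ring, 2 of 7 genes fell in siMYCN and 0 rose. PSMA5, on chromosome 1 (109399042 to 109426448), measured 58.8, 59.1 and 62.9 CPM under siCTR, 51.5, 53.8 and 50.0 under siMYCN, and 58.0, 55.1 and 59.4 under siHAND2. Every siMYCN library was below every library of the other groups, and the change in siMYCN was -0.21 (SE 0.05, limma adjusted p = 0.00319). PSMA2, on chromosome 7 (42916861 to 42932185), measured 92.4, 92.9 and 95.9 CPM under siCTR, 86.3, 81.8 and 84.9 under siMYCN, and 91.4, 89.6 and 100.2 under siHAND2. Here too the siMYCN libraries were the lowest of all (-0.15, SE 0.048, limma adjusted p = 0.0219). The PSMA2 change did not pass without siCTR replicate 2 (limma adjusted p = 0.0526), siCTR replicate 3 (0.0826) or siMYCN replicate 2 (0.0828). PSMA6 was also below siCTR in every siMYCN library but did not pass (-0.11, limma adjusted p = 0.0884). It passed as lower after median-ratio rescaling or quantile normalization, and without siHAND2 replicate 3 or siMYCN replicate 2. It also passed when the fit held only siMYCN and siCTR, or held the replicate number as a block. AL121594.1, which shares 38842 bp with PSMA6 on the same strand, lay at 36.5 CPM and fell in siMYCN (-0.36, limma adjusted p = 0.000101). Reads of the pair may have been shared, which was not tested. The other 4 alpha genes lay between -0.05 and 0.02.

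The proximal sequences of PSMG1, PSMA5 and PSMA2 are shown because these genes carry the decreases and each has at least 1 match to the motifs that were searched. They come from RefSeq (GRCh38.p14) and all 3 lie on the minus strand. Each runs 5′ to 3′ along the gene from position -250 to -41 relative to the annotated start. Capitals mark CCAAT, the binding motif of NF-Y, and in PSMG1 also a match to TGACNNNGC, the core of the antioxidant response element that NRF1 and NRF2 bind with small MAF proteins. The regions are chr21:39183492-39183701 for PSMG1, chr1:109426489-109426698 for PSMA5 and chr7:42932215-42932424 for PSMA2.
PSMG1: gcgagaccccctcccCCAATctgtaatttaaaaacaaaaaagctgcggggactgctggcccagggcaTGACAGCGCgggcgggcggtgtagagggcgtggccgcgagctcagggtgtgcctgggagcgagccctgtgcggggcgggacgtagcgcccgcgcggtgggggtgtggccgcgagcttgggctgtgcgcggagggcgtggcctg
PSMA5: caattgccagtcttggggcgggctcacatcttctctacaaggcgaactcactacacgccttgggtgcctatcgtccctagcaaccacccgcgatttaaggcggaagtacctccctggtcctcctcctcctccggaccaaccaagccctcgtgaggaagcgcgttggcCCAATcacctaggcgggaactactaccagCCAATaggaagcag
PSMA2: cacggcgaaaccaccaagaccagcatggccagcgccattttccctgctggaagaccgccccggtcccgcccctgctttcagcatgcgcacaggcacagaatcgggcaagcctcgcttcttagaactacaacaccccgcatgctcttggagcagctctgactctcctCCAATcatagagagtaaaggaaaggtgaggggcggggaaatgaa

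The 4 motifs were searched on both strands in the 250 bases before the start of 39 matched members and of 27303 RefSeq promoters. CACGTG, the E-box that MYC proteins prefer, was found in 3 members (7.69%; PSMB3, PSMD9 and PSME3) and in 6.49% of all promoters. CATCTG, an E-box form that HAND proteins can bind, was found in 4 members (10.3%) and in 12.2% of all. TGACNNNGC occurred in 10 members (25.6%) against 11.0%, and CCAAT in 16 (41.0%) against 33.0%. A match is a description of letters and not a site, and a factor's binding was not measured here. The 3 members with CACGTG were not called in siMYCN on the deposited CPM with all libraries. PSMB3 passed as lower after median-ratio rescaling or quantile normalization, and without siMYCN replicate 2. Only 39 of the 45 members were searched and CACGTG is rare among all promoters, so the search was not a test of MYCN control.

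In the beta rings and the catalytic sites, limma called 0 of 7 genes in siMYCN, higher or lower. PSMB5 was at -0.08 (adjusted p = 0.175), PSMB6 at 0.03 (adjusted p = 0.6) and PSMB7 at -0.04 (adjusted p = 0.509) in limma. PSMB3, a structural subunit, came closest at -0.12 (limma adjusted p = 0.0815), although its groups overlapped. After median-ratio rescaling of the libraries, PSMB3, PSMB4 and PSMB5 passed as lower, and PSMB3 passed without siMYCN replicate 2 (-0.15, limma adjusted p = 0.0468).

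PSMB10, the inducible subunit that replaces PSMB7 in the immunoproteasome, was low in both knockdowns without passing on the deposited CPM. It measured 5.75, 6.28 and 5.78 CPM under siCTR, 4.99, 5.16 and 5.16 under siMYCN, and 5.04, 5.17 and 5.09 under siHAND2. All knockdown libraries were below all siCTR libraries, with changes of -0.18 in both (limma adjusted p = 0.0945 in siMYCN and 0.103 in siHAND2). AC040162.1, a gene on the same strand that overlaps it, lay at 4.32 CPM and changed by -0.28 in siMYCN (limma adjusted p = 0.034), so reads of the pair may have been shared. PSMB10 passed as lower in both knockdowns after quantile normalization or without the intensity trend, and in siMYCN also after median-ratio rescaling. PSMB8 stayed between 0.199 and 0.499 CPM in every library.

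The base and lid held 3 of the 4 increases in siMYCN. They were 1 of 6 ATPases, 1 of 3 other base subunits and 1 of 8 lid subunits. Of all genes tested, 24.5% were called higher. PSMC3, 1 of the 6 ATPases, lies on chromosome 11 (47418769 to 47426473) and measured 168, 165 and 172 CPM under siCTR, 193, 186 and 187 under siMYCN, and 180.3, 179 and 163 under siHAND2. The siMYCN libraries were above all others, at 112% of siCTR (0.16, SE 0.045, limma adjusted p = 0.01). PSMC3 did not pass after median-ratio rescaling or quantile normalization (0.1, limma adjusted p = 0.106 in both). The other 5 ATPase genes lay between -0.03 and 0.08 and did not pass.

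PSMD12, a scaffold subunit of the lid on chromosome 17 (67337916 to 67366605), measured 114, 108 and 111 CPM under siCTR, 121, 121 and 125 under siMYCN, and 113, 109 and 117 under siHAND2. PSMD1, the large base subunit on which ubiquitin receptors and the ATPase ring meet, lies on chromosome 2 (231056864 to 231172827) and measured 204, 198 and 199 CPM under siCTR, 217, 209 and 223 under siMYCN, and 215, 205 and 203 under siHAND2. For both genes all siMYCN libraries were above siCTR. The changes in siMYCN were 0.14 for PSMD12 (SE 0.043, limma adjusted p = 0.0179) and 0.11 for PSMD1 (SE 0.041, limma adjusted p = 0.0472). PSMD12 did not pass without siCTR replicate 2 (limma adjusted p = 0.0895) or siMYCN replicate 3 (0.0749). PSMD1 did not pass without any 1 of the 3 siCTR libraries, siMYCN replicates 1 and 3 or siHAND2 replicate 2 (limma adjusted p from 0.0553 to 0.176). The ubiquitin receptor PSMD4 was also above siCTR in every siMYCN library but did not pass (0.12, limma adjusted p = 0.0544). The other 7 lid genes, among them that of the deubiquitinase PSMD14 at -0.05, did not pass.

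Among the activators, PSME2 on chromosome 14 (24143362 to 24147570) encodes a subunit of the interferon-inducible PA28 ring that opens the core without ATP. It measured 29.6, 31.8 and 32.0 CPM under siCTR, 36.5, 35.2 and 33.6 under siMYCN, and 36.7, 31.9 and 34.0 under siHAND2. The siMYCN libraries were above siCTR (0.17, SE 0.06, limma adjusted p = 0.0397), and in siHAND2 the groups overlapped (0.13, adjusted p = 0.119). The call did not pass without any 1 of the 3 siCTR libraries or siMYCN replicates 1 and 2 (limma adjusted p from 0.0528 to 0.162). PSME1, whose product forms the same ring, was at 0.02 in siMYCN, PSME3 (the nuclear PA28 gamma) at 0.04, PSME4 (PA200) at -0.10 and the inhibitor PSMF1 (PI31) at 0.03. None of these passed in limma on the deposited CPM. PSME4 passed as lower in siMYCN after median-ratio rescaling or quantile normalization.

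The 4 increases depended on how the libraries were scaled. With median-ratio rescaling, 0 members were higher and 10 lower in siMYCN in limma; with quantile normalization the split was again 0 and 10. At an unadjusted p under 0.05, limma gave 1 higher and 19 lower after the former and 2 higher and 18 lower after the latter, against 6 and 7 on the deposited CPM. PSMG1, PSMG4, PSMA5 and PSMA2 were among the 10 in both cases. PSMG1, PSMG4 and PSMA5 passed in siMYCN under each of the 18 alternatives that were run. The number of members called higher was 1 without siCTR replicate 2, and 2 without siCTR replicate 1, siMYCN replicate 1 or siMYCN replicate 3.

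**Figure D4:**
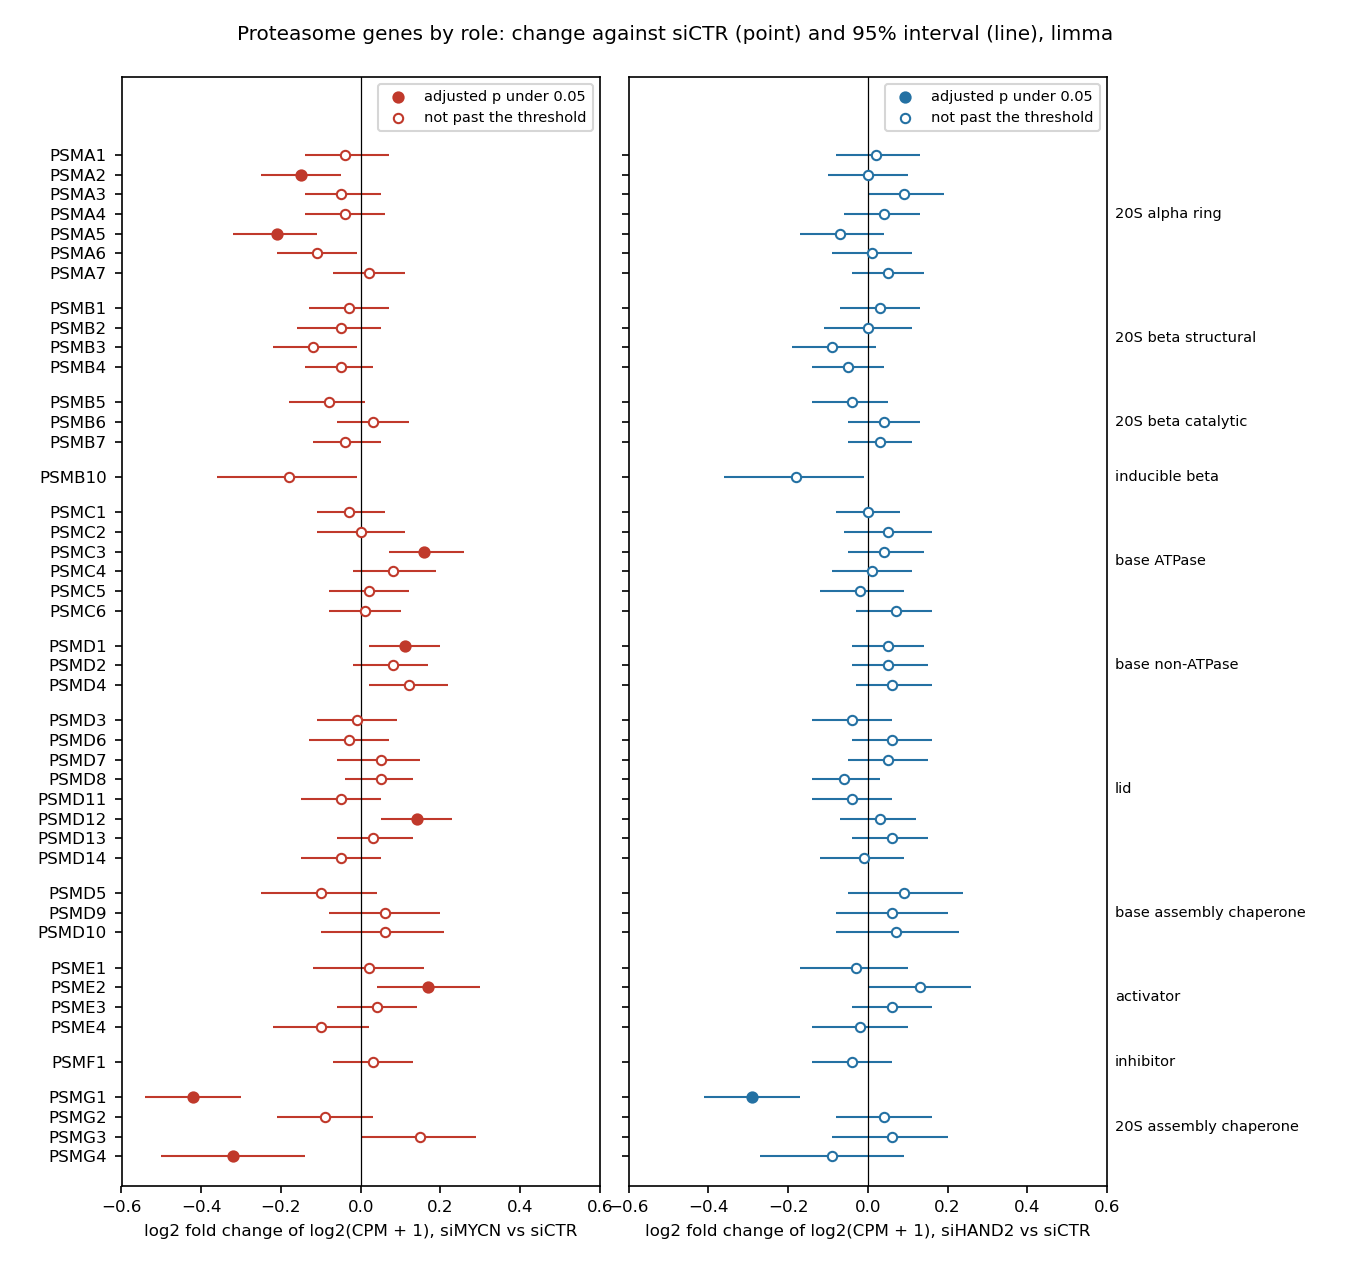
Log2 fold change on the log2(CPM + 1) scale of each tested proteasome gene with its 95% interval, by class, for siMYCN (left) and siHAND2 (right) against siCTR. Filled points passed the limma adjusted p of 0.05: 8 genes on the left and PSMG1 (-0.29) on the right. Nearly all open points on the right lie within 0.1 of 0.

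After the HAND2 knockdown, PSMG1 was the 1 proteasome gene called in limma. It is 2.27% of the 44 tested members, while 29.9% of all genes tested passed, 18.1% higher and 11.8% lower. Among all genes with a mean of 30 to 300 CPM, 34.9% passed. No member was called higher (0 in limma), and at an unadjusted p under 0.05 there were 1 higher and 2 lower. PSMG1 passed as lower under each of the 18 alternatives, with changes of -0.33 to -0.25.

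Apart from PSMG1, proteasome genes in siHAND2 lay close to siCTR. The change was within 0.1 for 41 members (93.2%), against 42.0% of all genes tested, and the median was 0.025 against 0.039. The 43 members without a call had 95% intervals between -0.36 and 0.26. PSMA5, PSMG4 and PSMC3, which were called in siMYCN, were at -0.07 (limma adjusted p = 0.348), -0.09 (0.467) and 0.04 (0.497) here. PSMA3 was above siCTR in every siHAND2 library, at 75.1, 71.8 and 75.5 against 67.8, 69.9 and 71.0 CPM, without passing (0.09, limma adjusted p = 0.143).

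Setting siHAND2 directly against siMYCN tested whether the knockdowns differed. In limma, 4 members were higher in siHAND2 and 0 lower, which is 9.09% of the members against 26.9% of all genes tested, 11.4% higher and 15.5% lower. At an unadjusted p under 0.05, 8 were higher and 3 lower. The 4 were the alpha ring genes PSMA2 (0.15, limma adjusted p = 0.0299), PSMA5 (0.15, 0.0359) and PSMA3 (0.14, 0.0321), and PSMD5, a chaperone of base assembly (0.20, SE 0.069, 0.0428). PSMD5, on chromosome 9 (120815496 to 120842951), measured 17.3, 18.0 and 19.2 CPM in siHAND2 against 16, 15.4 and 15.8 in siMYCN, and its siCTR libraries, at 16.7, 15.9 and 18.5, overlapped siHAND2. CUTALP, which shares 18124 bp with PSMD5, lay at 17.8 CPM.

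None of these 4 differences passed when siMYCN replicate 3 or siHAND2 replicate 3 was left out, or when the fit held only the 6 libraries compared. Leaving out replicate 1 or 2 of siCTR, siMYCN or siHAND2 also ended at least 1 of the 4 calls (limma adjusted p from 0.0502 to 0.11). PSMG1 was nominally higher in siHAND2 than in siMYCN (0.14, limma adjusted p = 0.0852), and so was PSMG4 (0.23, adjusted p = 0.057). The direct difference passed for PSMG4 without siHAND2 replicate 1 (0.31, limma adjusted p = 0.0126) or siMYCN replicate 2 (0.31, adjusted p = 0.0172), in which PSMG4 was the lowest and the highest of its group. PSMC3 (-0.12, limma adjusted p = 0.0622) and PSMD12 (-0.11, adjusted p = 0.0584) did not pass with all libraries. They passed without siHAND2 replicate 1 (PSMC3, adjusted p = 0.0368) and without siHAND2 replicate 3 (PSMD12, adjusted p = 0.0207). After median-ratio rescaling or quantile normalization, PSMG1 and PSMG4 passed as higher in siHAND2 than in siMYCN, and PSMG4 also passed with a filter of 5 CPM. Whether these 4 genes differ between the knockdowns thus depended on the setting.

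How the authors' counting treated strand and reads that fit several genes is not given in the sources used here, and 25 members overlap another gene of the table. Among called members, PSMA2 overlaps AC010132.3 on the same strand (13.1 CPM; 0.23 in siMYCN, limma adjusted p = 0.0651). PSMD1 overlaps HTR2B (3.13 CPM; 0.55, limma adjusted p = 0.000491), and PSME2 shares 888 bp with RNF31 (0.19, limma adjusted p = 0.144). PSMA3, called in siHAND2 against siMYCN, overlaps 2 genes on the opposite strand. It shares 6648 bp with PSMA3-AS1, which lay at 34.2 CPM and differed by 0.13 in that comparison (limma adjusted p = 0.119). It shares 27170 bp with ARMH4, which lay at 2.27 CPM and differed by 0.81 (limma adjusted p = 0.000138). The values of these members are uncertain to that extent. The 6 pseudogenes in the table that are named after members reached at most 1.92 CPM.

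Genes that act with the proteasome were read from 4 lists. The counts below are to be read beside the shares of all genes tested that limma called. These were 24.5% higher and 11.4% lower in siMYCN, and 18.1% higher and 11.8% lower in siHAND2. Whether any list departed from these shares was not tested. Of 9 genes that regulate proteasome gene transcription, 2 rose in siMYCN and 0 fell. NFE2L1, which encodes NRF1, measured 191, 186 and 184 CPM under siCTR, 229.9, 209.7 and 225 under siMYCN, and 203, 189 and 173 under siHAND2. It rose in siMYCN (0.24, SE 0.054, limma adjusted p = 0.00212) under each of the 18 alternatives, while the siHAND2 libraries overlapped siCTR (0.01, adjusted p = 0.932). The small MAF gene MAFF rose in siMYCN (0.29, limma adjusted p = 0.0179) and was the 1 gene of the list that fell in siHAND2 (-0.39, adjusted p = 0.00371), and its rise did not pass after either rescaling, nor without siCTR replicate 3 (adjusted p = 0.0694) or siMYCN replicate 3 (0.111).

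Of 12 partner proteins outside the PSM symbols, 1 rose and 1 fell in siMYCN, and 1 rose and 0 fell in siHAND2. ECPAS, an adaptor that tethers proteasomes, fell in siMYCN (-0.13, limma adjusted p = 0.0194), but not without siCTR replicate 1 (adjusted p = 0.0925), siCTR replicate 3 (0.0598) or siMYCN replicate 2 (0.0877). ZFAND5, a proteasome-binding zinc finger protein, rose by 0.12 in both knockdowns (limma adjusted p = 0.044 in siMYCN and 0.0476 in siHAND2), without passing after either rescaling. Leaving out any of siCTR replicates 2 and 3, siMYCN replicates 1 and 3 or siHAND2 replicates 1, 2 and 3 ended at least 1 of the ZFAND5 calls (limma adjusted p from 0.0502 to 0.189). POMP, which matures the 20S core together with the PSMG proteins, was at 0.08 (limma adjusted p = 0.299) in siMYCN and 0.07 (0.426) in siHAND2.

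The list of ubiquitin supply and shuttling had 17 tested genes, of which 4 rose and 2 fell in siMYCN and 3 rose and 1 fell in siHAND2. RPS27A, which encodes ubiquitin fused to a ribosomal protein, measured 637, 643 and 649 CPM under siCTR, 477, 503 and 470.2 under siMYCN, and 572, 567 and 655 under siHAND2. The siMYCN libraries were below all others, and RPS27A fell in siMYCN (-0.41, limma adjusted p = 1.37e-05). In siHAND2 the shuttle gene UBQLN2 rose (0.23, limma adjusted p = 0.00298).

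In the list of interferon-linked antigen processing, which is fed by peptides from the proteasome, 8 of 12 genes were tested. None rose and 1 fell in siMYCN, and 1 rose and 2 fell in siHAND2. The peptide transporter gene TAP2 measured 10.7, 9.23 and 6.94 CPM under siCTR, 6.73, 7.58 and 6.21 under siMYCN, and 5.83, 5.81 and 6.42 under siHAND2. TAP2 fell in siHAND2 (-0.49, limma adjusted p = 0.00511), where all libraries were below siCTR, and in siMYCN (-0.33, adjusted p = 0.0381), where the groups overlapped. The siMYCN call of TAP2 did not pass without siCTR replicate 1 or 2 or siMYCN replicate 1 or 3 (limma adjusted p from 0.0798 to 0.21), and without siCTR replicate 1 the change was -0.21.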

How the data were processed

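RNA of 9 LAN5 libraries was sequenced, and the authors deposited 1 table of CPM for 25084 genes, each value with a constant of 0.0001 added. The submitters' processing notes name STAR 2.5.1, Partek and hg19, whereas the gene positions in the table matched GRCh38, as which they are given. The counting rule and annotation are not given in the sources used here. Low values came out as whole multiples of a step in 79.5% to 80.9% of cases (within 0.02, up to 20 steps), too few for a count model, so the step gave only the depth.

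Tests used limma 3.58.1 (R 4.3.3) on log2(CPM + 1) for the 14495 genes that reached 1 CPM in 3 or more libraries. The 9 libraries entered 1 fit with an intensity trend. Tests were two-sided, with Benjamini-Hochberg adjustment over all genes tested and a threshold of 0.05. A log2(CPM + 1) fold change understates changes of low genes. The members and gene lists were chosen with earlier results of these data known. Every member was accounted for, and values were given in full for called members with at least 5 CPM, by size of change, and for some genes of each list; PSMB8, the PSMG partners, PSMD4, POMP and the overlapping genes were chosen after their values were seen. The deviations of same-numbered libraries from their group means correlated at -0.0399 to 0.305. Libraries with different numbers were not compared in this way, so whether the replicates are paired was not settled. The main fit did not pair them. The fit was tested on simulated data. Alternatives changed the pseudocount, the filter, the scaling, the trend, the libraries fitted and the replicate block. Some genes of the lists are not reported here by name.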

Additional observations from a re-analysis of the deposited data

How the results depend on the processing

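Each comparison was repeated under 18 alternatives, and no called direction turned; the causes of the differences below were not tested, beyond fewer libraries in a fit. With median-ratio rescaling, siMYCN had 0 members higher and 10 lower with a median log2 change of -0.076, siHAND2 had a median of -0.019, and siHAND2 against siMYCN had 7 higher. With quantile normalization the siMYCN values were 0, 10 and -0.07, siHAND2 had 2 lower with a median of -0.005, and the direct comparison had 7 higher with a median of 0.049. No filter left 2 higher in siMYCN. No intensity trend left 2 higher in siMYCN, 2 lower in siHAND2 and 1 higher in the direct comparison, and fitting only its own 6 libraries left 0 higher there. With the replicate block, siMYCN had 5 higher and 5 lower, siHAND2 had 1 lower, and the direct comparison had 6 higher, with PSMG4 among them, and 2 lower, PSMC3 and PSMD12.

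Leaving out 1 library at a time gave 1 to 5 higher and 3 to 5 lower in siMYCN, a median of 0 to 0.029 in siHAND2, and 0 to 4 higher and 0 to 2 lower in the direct comparison. PSMD1 and PSME2 lost their siMYCN calls under 10 and 9 alternatives, PSMD12 and PSMA2 under 4 each, and PSMC3 under 2. How far 3 libraries a group or their depth limited the calls was not tested; PSMB10 at -0.18 and PSMG3 at 0.15 did not pass in siMYCN.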

Other observations

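Some genes that carry a member's name without being proteasome subunits also passed the threshold. PSMA3-AS1, a transcript antisense to PSMA3, rose from 29.7 ± 1.77 CPM in siCTR to 34.7 ± 1.59 in siMYCN (SD, n = 3; log2 change 0.22, limma adjusted p = 0.0102) and to 38.2 ± 2.18 after siHAND2 (log2 change 0.35, adjusted p = 0.000356), with all knockdown libraries above siCTR. Reads of PSMA3 and its antisense partner cannot be told apart if strand was not used. PSMC3IP, a recombination factor, rose in siMYCN (0.22, limma adjusted p = 0.0128). PSME3IP1, which binds PSME3, measured 113, 113 and 111 CPM under siCTR, 122, 120.5 and 120.1 under siMYCN, and 104, 100.2 and 106 under siHAND2. It rose in siMYCN (0.11, limma adjusted p = 0.0434) and fell in siHAND2 (-0.12, adjusted p = 0.0377).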
